A study of Homo sapiens with 6 samples.

Results

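The genes described here are 10 members of the semaphorin and plexin families in T24 cells, out of 37871 genes in the deposited count table: the semaphorins SEMA4A, SEMA3A, SEMA3C, SEMA4B, SEMA4C and SEMA7A and the plexins PLXNA1, PLXNB1, PLXNB2 and PLXND1. They were chosen by symbol because SEMA4A was among the genes with the largest increase in this comparison. All 10 had a row in the table and all 10 passed the filter on low counts. T24 is an established human bladder carcinoma line, labelled epithelial. One group of 3 libraries came from vehicle-treated cells and the other group of 3 from cells given lipopolysaccharide (LPS, the bacterial ligand of TLR4) together with nigericin (a potassium ionophore used to activate the NLRP3 inflammasome). Both groups are the same single line, no dose or time of treatment is given in the sources used here, and no sample received LPS alone or nigericin alone, so the parts played by the agents cannot be told apart. Nothing in the labels says that the replicates were separate cultures, so the errors and p-values cover only the variation among these 6 libraries and that variation may be technical.

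Semaphorins are secreted or membrane-bound signals that share a conserved sema domain and are best known for guiding growing axons. They also act in blood vessels, in immune cells and in the spread of carcinoma cells. Plexins are their main receptors: the binding of a semaphorin switches the plexin's intracellular GTPase-activating domain on, which lowers the activity of small GTPases of the Ras and Rap families, loosens integrin adhesion and rearranges actin. Class 3 semaphorins are secreted and most of them need a neuropilin as a co-receptor beside a class A plexin or plexin-D1, class 4 semaphorins span the membrane and bind mainly class B plexins, and SEMA7A is held in the membrane by a lipid anchor and binds plexin-C1 and beta-1 integrins.

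Levels are given as CPM, counts divided by library sizes scaled with TMM factors, with the mean ± SD over n = 3 libraries per group. A log2 fold change is the treated level over the vehicle level from the edgeR fit across all 19170 tested genes, with its standard error (SE). The library totals ran from 66180407 to 89152224 counts. Of all tested genes, 55.3% passed an edgeR adjusted p of 0.05, 28.9% higher and 26.4% lower after treatment. The change followed GC content across genes. The Spearman correlation of each library's deviation from the mean of the 6 with GC content over 13976 protein-coding genes ran from 0.194 to 0.609 across the vehicle libraries and from -0.541 to -0.431 across the treated ones. A fit with an offset for GC content and exon length in each library is therefore given beside the members' values. In such a fit, a trend made by library preparation and a trend made by the treatment cannot be told apart. The labels of all 6 samples name 2 companies for RNA extraction, 1 of them also for the libraries, and do not say whether the groups were prepared together, which bears on every difference between treated and vehicle libraries. The 6 epithelial markers summed to between 6535.5 and 9535.7 CPM in vehicle and to between 3509.9 and 4511.6 CPM after treatment, nearly all of it from keratins. The part of this difference in the members' values was not tested. Within the list, the mean of EPCAM went up from 1.93 to 2.89 CPM, with overlap of the groups. The log2 fold change of KRT7 was -0.72, or -0.07 with the offsets, while KRT8, KRT18 and KRT19 were at -0.75, -1.29 and -0.68 with them. CDH1 (E-cadherin) was at 0 in every vehicle library and in 2 of the 3 treated ones. Of the leukocyte markers, 4 of 6 had a row and summed to between 2.64 and 4.42 CPM in vehicle and between 3.08 and 4.83 CPM in treated libraries, with PTPRC (CD45) at 0 in every vehicle library. The endothelial list of 4 summed to 0.735 to 1.02 and 0.476 to 0.947 CPM, the neuronal list of 4 to 1.38 to 2.87 and 3.07 to 5.20 CPM, and the 6 fibroblast and mesenchymal markers, DCN at 0 throughout, to 115.2 to 138.1 and 187.1 to 207.0 CPM. In this last list the mean of CDH2 went from 34.1 to 116.7 CPM and that of COL1A2 from 0.0146 to 0.0756. VIM went down from 89.7 to 75.3 CPM, COL1A1 from 4.29 to 3.35 and PDGFRB from 1.07 to 0.852. Among the leukocyte markers, CD14 had means of 3.43 and 3.06 CPM and LYZ of 0.0671 and 0.673.

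SEMA4A was close to silent in vehicle cells and well above that in every treated library. It encodes a membrane semaphorin that stimulates T cells when presented by dendritic cells and B cells, and that binds plexin-D1 and the class B plexins. Vehicle libraries 1 to 3 held 35, 23 and 33 SEMA4A counts, or 0.383, 0.302 and 0.362 CPM, and treated libraries 1 to 3 held 1996, 2722 and 2701 counts, or 30.2, 32.6 and 32.2 CPM. All 3 treated libraries lay within a narrow band, far above all 3 vehicle libraries. The means were 0.349 ± 0.0424 and 31.6 ± 1.31 CPM (log2 fold change 6.49, SE 0.177), a 90.0-fold difference. These values chose the gene and are given as a description, with no test. In bulk libraries such as these, a change in the number of cells that make a transcript and a change in RNA per cell cannot be told apart. By log2 fold change SEMA4A stood at rank 161 of 19170 tested genes and at rank 5 of the 10996 genes with at least 5 CPM in the higher group, between ENSG00000237927 at 6.54 and ENSG00000285829 at 6.36. In the offset fit its log2 fold change was 6.76 (SE 0.147), and leaving out any 1 library gave 6.40 to 6.56.

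**Figure D1:**
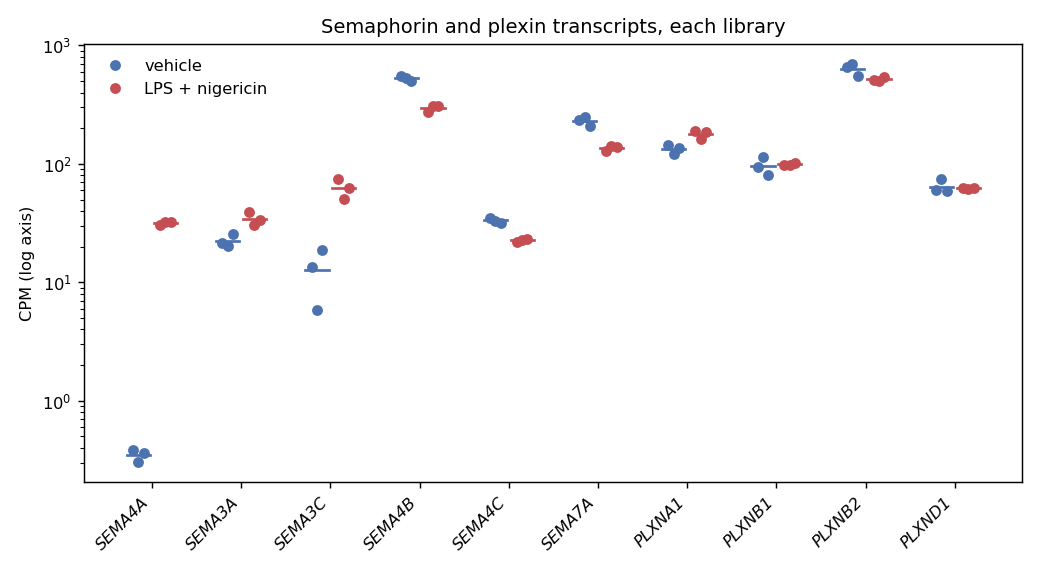
Level of each of the 10 members in each library, in CPM on a log axis, with vehicle libraries in blue, libraries given LPS plus nigericin in red, and group means as horizontal lines. SEMA4A lies between 0.302 and 0.383 CPM in vehicle and between 30.2 and 32.6 CPM after treatment, while PLXNB1 and PLXND1 overlap between groups.

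SEMA4A (ENSG00000196189) lies at chr1:156147366-156177752 on the plus strand of GRCh38, and none of its annotated exon bases are shared with another gene. RefSeq lists 4 start sites for it on GRCh38.p14. The window from 250 bases before to 50 after each start was searched on both strands for 6 motifs, and only the window of the most downstream start held a match. It is shown here because it belongs to the member with the largest difference, and it holds both a match to the NF-kB consensus and a pair of inverted heat shock factor units (GAANNTTC). Beside it stand the only other member windows with a match, those of SEMA7A and SEMA4C. The SEMA7A window also holds a heat shock pair, and the SEMA4C window a cyclic AMP response element (TGACGTCA). Both of these genes had lower levels after treatment in the fit without offsets. With the GC and length offsets their log2 fold changes were -0.17 and -0.11, and neither reached the threshold. Sequences run 5′ to 3′ along the gene's strand, and capitals mark the matches; in SEMA4A the first is the heat shock pair and the second the NF-kB match.
SEMA4A, chr1:156154298-156154597, plus strand: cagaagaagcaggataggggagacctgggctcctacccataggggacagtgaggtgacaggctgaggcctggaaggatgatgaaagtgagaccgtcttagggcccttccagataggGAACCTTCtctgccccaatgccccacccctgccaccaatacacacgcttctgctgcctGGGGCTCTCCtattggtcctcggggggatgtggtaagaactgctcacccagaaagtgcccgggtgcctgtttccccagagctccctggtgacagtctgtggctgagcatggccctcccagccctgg
SEMA7A, chr15:74433909-74434208, minus strand: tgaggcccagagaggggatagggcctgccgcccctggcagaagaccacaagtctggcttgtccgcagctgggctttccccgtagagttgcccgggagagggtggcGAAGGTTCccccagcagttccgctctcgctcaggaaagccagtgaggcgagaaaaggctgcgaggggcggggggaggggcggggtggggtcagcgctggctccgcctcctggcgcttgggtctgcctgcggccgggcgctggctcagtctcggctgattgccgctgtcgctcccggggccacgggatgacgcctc
SEMA4C, chr2:96870031-96870330, minus strand: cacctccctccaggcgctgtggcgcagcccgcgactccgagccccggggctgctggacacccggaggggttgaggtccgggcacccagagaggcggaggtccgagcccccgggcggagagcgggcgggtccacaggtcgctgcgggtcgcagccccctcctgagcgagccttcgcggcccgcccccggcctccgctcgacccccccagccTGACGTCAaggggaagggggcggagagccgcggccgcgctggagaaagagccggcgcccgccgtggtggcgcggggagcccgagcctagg

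The NF-kB match in the SEMA4A window, GGGGCTCTCC, begins at -76 relative to the start, and its heat shock pair, GAACCTTC, begins at -134. The SEMA7A pair, GAAGGTTC, begins at -145 and the SEMA4C element at -40. No match overlapped another. Of all 35116 RefSeq windows of this length, 5.91% held the NF-kB consensus, 6.77% the heat shock pair and 1.85% the cyclic AMP response element. By gene, counting a match in any window, the shares were 7.09%, 8.21% and 2.25% of 27305 genes. SEMA4A had 4 windows in which a match could be found. The AP-1 motif TGANTCA, the E-box CACGTG and the ATF4 composite TGATGNAAT, present in 7.71%, 7.26% and 0.991% of windows, were in none of the 17 windows of the 9 members with an entry. A match describes letters in a window and nothing about a factor.

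The log2 fold changes of the 10 other tested genes around SEMA4A ran from -1.04 to 0.84. The gene next to it upstream on the same strand is LMNA, which encodes the nuclear lamins A and C and ends 7276 bases before the SEMA4A start. LMNA was at 1416 ± 226 CPM in vehicle and 1046 ± 129 CPM after treatment (a log2 fold change of -0.44 ± 0.155 SE with an edgeR adjusted p = 0.0424). The LMNA call was lost without vehicle library 1 or 2 or any treated library (edgeR adjusted p = 0.051 to 0.148), and with the GC and length offsets the value was 0.01 (edgeR adjusted p = 0.918). The next gene downstream on the same strand, SLC25A44, a mitochondrial carrier of branched-chain amino acids that begins 16179 bases past the SEMA4A end, rose from 26.0 ± 2.29 to 46.3 ± 1.74 CPM (a log2 fold change of 0.84 ± 0.121 SE with an edgeR adjusted p = 0.000927). The small RNA gene ENSG00000252236 lies closer, on the other strand, and had a mean of 0.00366 CPM in vehicle and 0.0130 CPM after treatment. Counts per gene do not show which of the SEMA4A start sites, or which exons, the reads came from.

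**Figure D2:**
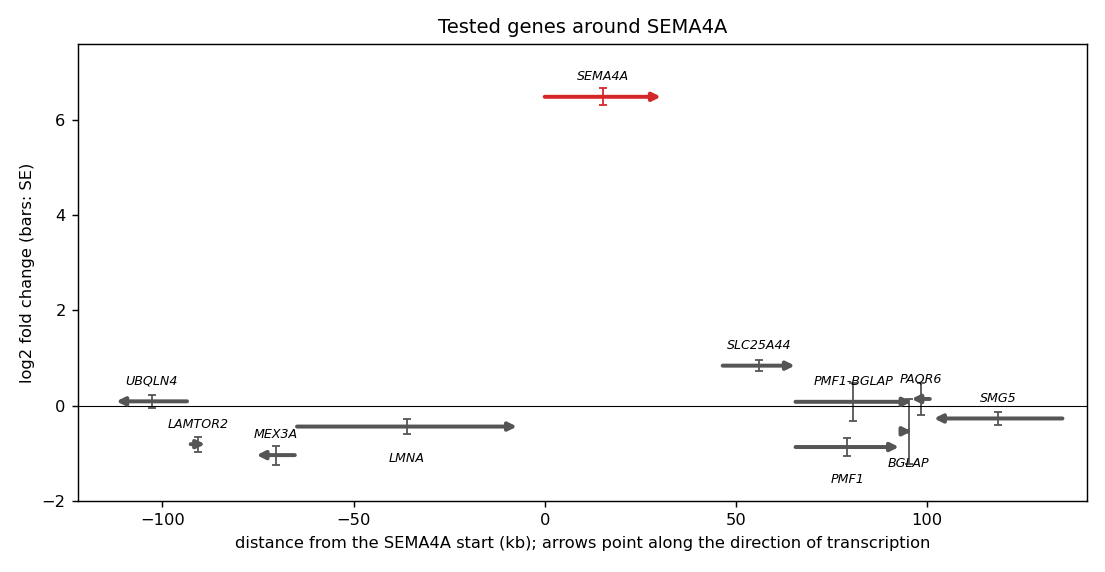
Log2 fold change (treated over vehicle, bars are SE) of the tested genes around SEMA4A, drawn at their distance from its start with arrows along the direction of transcription. SEMA4A stands at 6.49, while its neighbours LMNA and SLC25A44 are at -0.44 and 0.84.

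By the profile over the 6 libraries, the 5 genes closest to SEMA4A among 10995 others with at least 5 CPM in the higher group were ENSG00000285829, ENSG00000290053, TBR1, DNALI1 and LSMEM1. The measure was the root mean square difference of centred log2 CPM, which was 0.198, 0.212, 0.346, 0.433 and 0.495 in that order. All 5 were near 0 in vehicle, with means of 0.0504 to 0.229 CPM, and had means between 5.15 CPM (ENSG00000290053) and 19.0 CPM (ENSG00000285829) after treatment. This pattern follows from the measure and from the filter of 5 CPM, so nothing is read from it. TBR1 is a transcription factor of cortical neurons, DNALI1 an axonemal dynein light chain and LSMEM1 a small membrane protein. None of these 5 is a semaphorin or a plexin.

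Per kilobase of annotated exon, taken over all annotated transcripts of a gene, SEMA4A was a minor semaphorin transcript in both groups. Which transcripts the cells made is not known, so comparisons between genes on this scale, here and for the plexins below, are rough. In vehicle it ranked 15 of the 19 semaphorins in the table, at 0.0512 ± 0.00622 CPM per kb, below SEMA5A and above SEMA6A without overlap of the libraries. After treatment it ranked 5, at 4.64 ± 0.192 CPM per kb, where its libraries overlapped those of SEMA4F at 4.55 ± 0.217. It made up 0.0221% to 0.0307% of the summed semaphorin level in vehicle libraries and 3.19% to 3.28% in treated ones. The summed level itself was 188.1 ± 14.1 CPM per kb in vehicle and 143.5 ± 4.36 after treatment, and the groups did not overlap. SEMA4B, SEMA7A and the non-member SEMA3F held the top 3 ranks in both groups. SEMA4B took 38.0% to 41.4% of the sum in vehicle and 28.1% to 30.2% after treatment, SEMA7A 31.7% to 32.6% and 24.6% to 25.4%, and SEMA3C 0.469% to 1.74% and 5.54% to 8.62%. The sum and these shares depend on the same contrast that chose SEMA4A and carry no test. Neither was computed with the GC and length offsets. In that fit SEMA4B moved from -0.83 to -0.40 on the log2 scale and SEMA7A from -0.76 to -0.17. SEMA3F moved from 0.02 to 0.63. How the sum would compare in that fit is not known.

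**Figure D3:**
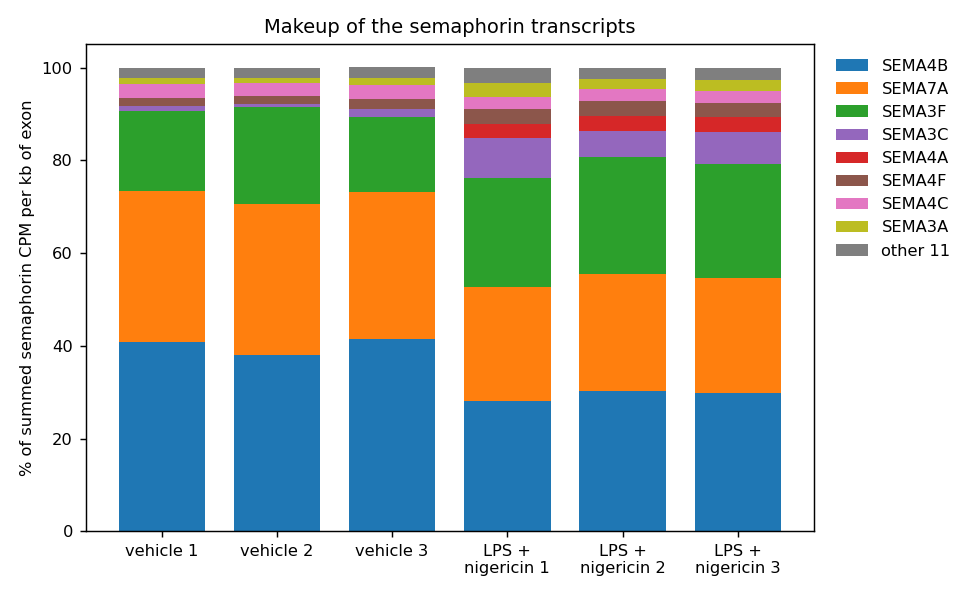
Share of each semaphorin in the summed semaphorin level of each library, in percent of CPM per kilobase of annotated exon, for the 8 genes named and the other 11 together. No GC and length offsets were applied. SEMA4A goes from at most 0.0307% to at least 3.19% and SEMA4B from at least 38.0% to at most 30.2%.

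Both secreted class 3 members had higher levels in every treated library, though for SEMA3A the direction turned with the GC and length offsets. SEMA3C is a class 3 semaphorin that guides neural crest cells in the developing heart and has been tied to tumour cell invasion. It was at 13.4, 5.89 and 18.8 CPM in vehicle libraries 1 to 3 and at 74.8, 50.6 and 62.5 CPM in treated libraries 1 to 3. The lowest treated library was still well above the highest vehicle library, and vehicle library 2, the lowest, was also the library with the strongest correlation with GC content. The log2 fold change was 2.30 (SE 0.383), or 1.59 (SE 0.233) with the offsets, 1.96 without vehicle library 2 and 2.69 without vehicle library 3. SEMA3A, the prototype repellent of axons, was at 21.5, 20.3 and 25.7 CPM in vehicle and at 39.0, 30.2 and 33.3 CPM after treatment. Its groups did not overlap, but its log2 fold change of 0.60 (SE 0.154) turned to -0.46 (SE 0.133) with the GC and length offsets, so its direction depends on that choice. Both transcripts are GC-poor, SEMA3A at 36.7% and SEMA3C at 39.4%, in the quintile of protein-coding genes with the lowest GC content, whose median log2 fold change was 0.83.

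The membrane semaphorins among the members, other than SEMA4A, were lower in every treated library. SEMA4B, a ligand of class B plexins and the most abundant semaphorin here, was at 547.6, 532.5 and 500.4 CPM in vehicle and at 273, 309 and 306 CPM after treatment. All 3 treated libraries lay below all 3 vehicle libraries, a 1.78-fold difference of the fitted levels with a log2 fold change of -0.83 (SE 0.107) that became -0.40 (SE 0.0787) with the offsets. SEMA7A, which promotes axon growth and activates monocytes through beta-1 integrin, was at 237, 248 and 208 CPM in vehicle and at 129, 141 and 138 CPM after treatment. The groups were clearly apart, with a log2 fold change of -0.76 (SE 0.111), or -0.17 (SE 0.0702) with the offsets. SEMA4C, a plexin-B2 ligand that acts in muscle and nerve development, was at 35, 33.2 and 31.6 CPM in vehicle and at 21.9, 22.8 and 23.3 CPM after treatment. It too had no overlap, with a log2 fold change of -0.55 (SE 0.117), or -0.11 (SE 0.0926) with the offsets. SEMA4B, SEMA7A and SEMA4C have GC contents of 61.3%, 60.5% and 60.4% and fall in the most GC-rich quintile, whose median log2 fold change was -0.74. SEMA4A, at 57.2%, falls in the next quintile down, with a median of -0.40.

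**Figure D4:**
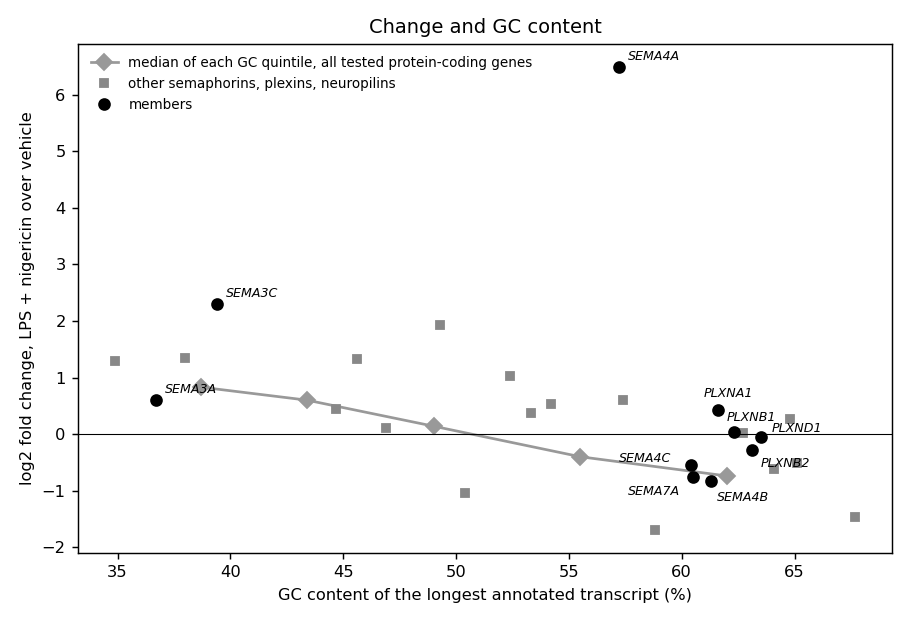
Log2 fold change against the GC content of the longest annotated transcript, for members (black) and other semaphorins, plexins and neuropilins (grey squares), with the median of each GC quintile of all tested protein-coding genes (diamonds). The quintile medians go from 0.83 at low to -0.74 at high GC content, with SEMA3A near this line and SEMA4A far above it.

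Of the plexin members, PLXNA1 and PLXNB2 did not overlap between groups and PLXNB1 and PLXND1 did. Among all tested genes the groups did not overlap in 67.0%, so nothing is read from this split. PLXNA1, a receptor for class 3 and class 6 semaphorins, was at 143.5, 120.2 and 135 CPM in vehicle and at 188, 163 and 186 CPM after treatment. Every treated library was above every vehicle one, with a log2 fold change of 0.43 (SE 0.117), or 0.71 (SE 0.118) with the offsets. PLXNB2, a receptor of SEMA4C and SEMA4D and the most abundant plexin here, was at 655.9, 698.3 and 551 CPM in vehicle and at 508, 504.6 and 541.5 CPM after treatment. Its groups came close without overlapping, and its log2 fold change was -0.29 (SE 0.121), or 0.20 (SE 0.0749) with the offsets. PLXNB1, the high-affinity receptor of SEMA4D, was at 93.9, 114 and 81.2 CPM in vehicle and at 98.4, 98.1 and 101.7 CPM after treatment. The treated libraries lay inside the range of the vehicle libraries, with a log2 fold change of 0.04 (SE 0.138), or 0.40 (SE 0.0861) with the offsets. PLXND1, a receptor of SEMA3E and SEMA4A in blood vessels, was at 59.7, 74.2 and 58.8 CPM in vehicle and at 62.1, 61.3 and 63.0 CPM after treatment. Here too the treated libraries lay within the vehicle range, with a log2 fold change of -0.05 (SE 0.125), or 0.34 (SE 0.0868) with the offsets. With the offsets, then, PLXNB2 and PLXND1 both changed sign.

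Per kilobase of exon the order of the plexins was the same in both groups from PLXNB2 down. In vehicle PLXNB2 stood at 87.5 ± 10.4 CPM per kb, followed by the non-member PLXNA3 at 21.1 ± 0.775, PLXNA1 at 12.1 ± 1.08, PLXNB1 at 9.90 ± 1.70, PLXNB3 at 9.29 ± 0.471 and PLXND1 at 6.60 ± 0.889. After treatment the class B plexins and PLXND1, the plexins known to bind SEMA4A, stood at 71.4 ± 2.81 (PLXNB2), 10.2 ± 0.206 (PLXNB1), 6.50 ± 0.262 (PLXNB3) and 6.38 ± 0.0890 CPM per kb (PLXND1). The vehicle libraries of PLXNA1 and PLXNB1 overlapped, as did those of PLXNB1 and PLXNB3, and after treatment those of PLXNB3 and PLXND1 did. PLXNB2 made up 56.1% to 59.9% of the summed plexin level in vehicle and 47.3% to 49.1% after treatment. The sum of the 9 plexins was 149.7 ± 13 CPM per kb in vehicle and 147.7 ± 5.83 after treatment, and the groups overlapped. The plexin sum and shares were not computed with the offsets, with which the log2 fold change of PLXNB2 moved from -0.29 to 0.20.

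Of the 10 members, 4 were on the higher side of the threshold (SEMA4A, SEMA3C, SEMA3A and PLXNA1) and 3 on the lower side (SEMA4B, SEMA4C and SEMA7A), against 28.9% of all tested genes called higher and 26.4% called lower. In 8 of the 10 the groups did not overlap, against 67.0% of all tested genes. With the offsets 5 were on the higher side (SEMA4A, SEMA3C, PLXNA1, PLXNB1 and PLXND1) and 2 on the lower (SEMA3A and SEMA4B), against 23.3% and 27.3% of tested genes. SEMA3A did not reach the threshold without vehicle library 1 or treated library 1, nor PLXNA1 with library totals or without treated library 1 or 3. PLXNB2 was on the lower side with library totals, with DESeq2 and without vehicle library 3. The members were chosen on this contrast, so nothing is read from these counts. On GRCh38, the annotation places SEMA3A (ENSG00000075213) at chr7:83955777-84492724, SEMA3C (ENSG00000075223) at chr7:80742538-80922359, SEMA4B (ENSG00000185033) at chr15:90160604-90229679, SEMA4C (ENSG00000168758) at chr2:96859716-96870757 and SEMA7A (ENSG00000138623) at chr15:74409289-74433958. It places PLXNA1 (ENSG00000114554) at chr3:126988594-127037392, PLXNB1 (ENSG00000164050) at chr3:48403854-48430051, PLXNB2 (ENSG00000196576) at chr22:50274979-50307627 and PLXND1 (ENSG00000004399) at chr3:129555175-129606818. SEMA4B and PLXNA1 lie on the plus strand like SEMA4A, and the other 7 on the minus strand. No member shares exon bases with another annotated gene. The end of the nearest protein-coding gene upstream on the same strand lies 1402 bases before PLXNB2, 2112 before PLXNB1, 5124 before SEMA4C and 12018 before SEMA7A, and further away for the others except SEMA4A.

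**Figure D5:**
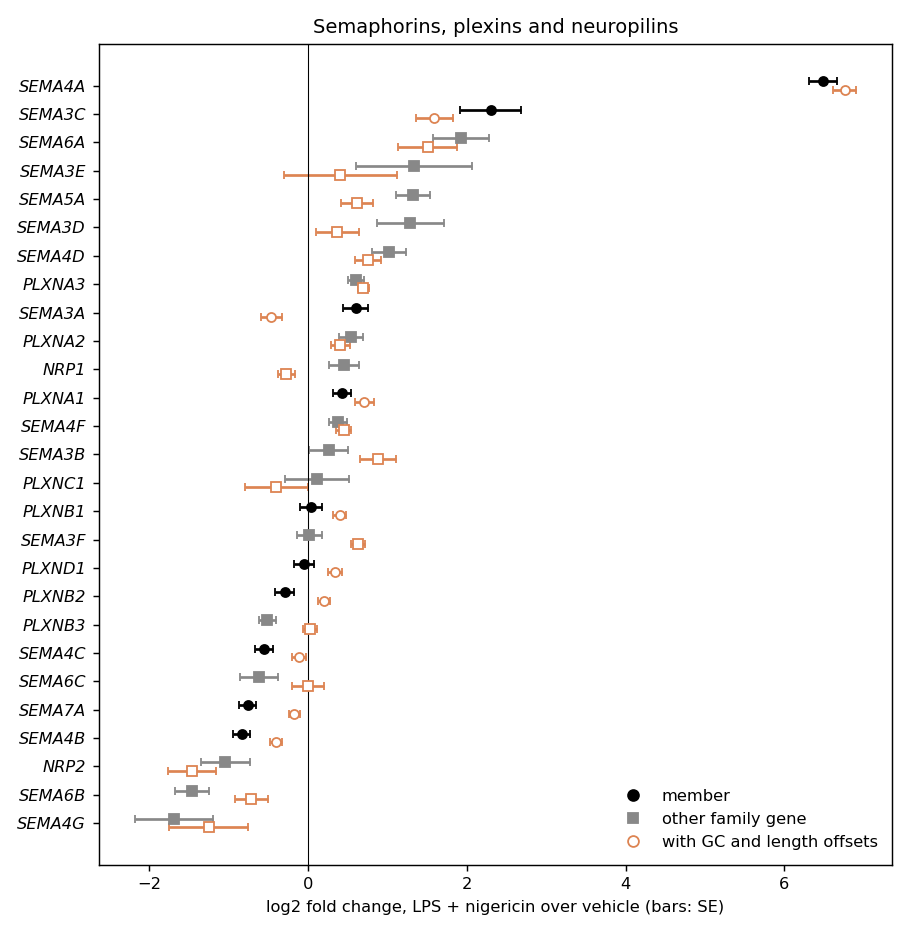
Log2 fold change of the 10 members (black circles) and the 17 other tested semaphorins, plexins and neuropilins (grey squares) without and, in open orange symbols, with the GC and length offsets; bars are SE. SEMA4A is at 6.49 and 6.76, far to the right of all others, and the members SEMA3A, PLXNB2 and PLXND1 and the other genes NRP1, PLXNC1 and PLXNB3 change side.

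The rest of the 2 families and their neuropilin co-receptors were taken as lists, and here p-values are given. These lists too were chosen with earlier results of these data known, so their calls are not independent of that choice. For each list count, the share over all tested genes was 28.9% higher and 26.4% lower, or 23.3% and 27.3% with the offsets. Of 14 other semaphorins, 13 had a row and 11 were tested, of which 5 rose, 2 fell and 4 did not pass (median log2 fold change 0.38, against 0.00 over all tested genes). SEMA5A, a transmembrane semaphorin with thrombospondin repeats, rose from 1.5 ± 0.0812 to 3.77 ± 0.593 CPM (a log2 fold change of 1.32 ± 0.212 SE with an edgeR adjusted p = 0.00142). SEMA6A, a ligand of PLXNA2 and PLXNA4, rose from 0.351 ± 0.105 to 1.33 ± 0.320 CPM (1.93, SE 0.352, edgeR adjusted p = 0.00262). SEMA4D, or CD100, the immune semaphorin that binds PLXNB1, rose from 9.16 ± 2.07 to 18.5 ± 3.02 CPM (1.02, SE 0.212, edgeR adjusted p = 0.00471). SEMA4F and SEMA3D rose by 0.38 and 1.29 on the log2 scale (edgeR adjusted p = 0.0255 and 0.0306). SEMA6B fell from 9.52 ± 1.43 to 3.46 ± 0.733 CPM (-1.46, edgeR adjusted p = 0.00109), and SEMA4G, whose exons share 1170 bases with MRPL43 on the other strand, from 1.12 ± 0.112 to 0.348 ± 0.225 CPM (-1.69, edgeR adjusted p = 0.0194). The others that did not pass were SEMA3B (0.26), SEMA3E (1.34) and SEMA6C (-0.62), with edgeR adjusted p = 0.397, 0.152 and 0.0574. With the offsets SEMA3B was called higher (0.88, edgeR adjusted p = 0.0118), and SEMA3E and SEMA6C did not pass (edgeR adjusted p = 0.661 and 0.988). SEMA3F, the abundant class 3 ligand of NRP2, was named for its level after its values were seen; it was at 166.3 ± 34.2 and 168.9 ± 10.8 CPM (0.02, edgeR adjusted p = 0.917), but at 0.63 with the offsets (edgeR adjusted p = 0.000467). With the offsets SEMA5A was at 0.62 and SEMA6B at -0.71, and the SEMA3D and SEMA4G calls were lost (edgeR adjusted p = 0.285 and 0.0664). The SEMA4F call was lost with library totals, no count filter or the replicate block, and when vehicle library 1 or 1 of the treated libraries, whichever, was dropped (edgeR adjusted p = 0.054 to 0.108), SEMA3D's with library totals and without vehicle library 1 or treated library 1 or 2 (0.067 to 0.114), and SEMA4G's without treated library 2 (0.0643). The number of other semaphorins that rose was 3 with library totals and without vehicle library 1 or treated library 1 or 2, and 1 fell without treated library 2. Without vehicle library 3 the log2 fold change of SEMA3D was 1.89, and without treated library 1 that of SEMA4G was -2.29.

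Of 7 other plexins and neuropilins, 6 were tested, of which 2 rose, 2 fell and 2 did not pass (median 0.28). PLXNA3 rose from 246.9 ± 9.07 to 378 ± 22.0 CPM (0.61, SE 0.102, edgeR adjusted p = 0.00173) and PLXNA2 from 41.3 ± 6.01 to 60.1 ± 6.53 CPM (0.54, edgeR adjusted p = 0.0157). Both are class A plexins that pair with neuropilins. PLXNC1, the plexin that binds SEMA7A, was at 1.90 ± 0.454 and 2.04 ± 0.986 CPM and did not pass (0.11, edgeR adjusted p = 0.833). NRP2, the co-receptor of SEMA3F and SEMA3C, fell from 3.63 ± 0.714 to 1.76 ± 0.634 CPM (-1.04, edgeR adjusted p = 0.0209). PLXNB3, which shares 1432 exon bases with SRPK3, fell from 65.1 ± 3.30 to 45.6 ± 1.84 CPM (-0.51, edgeR adjusted p = 0.00464), a value that was 0.03 with the offsets (edgeR adjusted p = 0.775). NRP1, the co-receptor of SEMA3A, was chosen for its role after its values were seen. It was at 72 ± 17.9 CPM in vehicle and 98.6 ± 11 CPM after treatment and did not pass (0.45, edgeR adjusted p = 0.0737), while it passed with the replicate block and without vehicle library 3 (edgeR adjusted p = 0.0224 and 0.0126) and was at -0.27 with the offsets. The PLXNA2 call was lost with library totals and without treated library 1 or 3 (edgeR adjusted p = 0.0633 to 0.0666), and NRP2's without treated library 2 or 3 (0.061 and 0.0584), so that 1 gene of this list rose with library totals or without treated library 1 or 3 and 1 fell without treated library 2 or 3. In these lists together, 7 genes rose and 4 fell of 17 tested.

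Of 15 other proteins that bind semaphorins or partner with plexins, 13 had a row and 8 were tested, of which 4 rose, 2 fell and 2 did not pass (median 0.86). ITGB1, the beta-1 integrin chain through which SEMA7A signals, rose from 224 ± 77.2 to 768 ± 94.0 CPM (1.78, SE 0.249, edgeR adjusted p = 0.000802), and ITGA1, its partner for SEMA7A, from 2.56 ± 0.635 to 7.35 ± 0.843 CPM (1.52, SE 0.234, edgeR adjusted p = 0.00120). MET, the hepatocyte growth factor receptor that couples to class B plexins, rose from 32.5 ± 7.08 to 88.0 ± 11.6 CPM (1.44, SE 0.185, edgeR adjusted p = 0.000560), and NRCAM, an adhesion molecule in neuropilin complexes, from 0.306 ± 0.149 to 1.31 ± 0.416 CPM (2.08, edgeR adjusted p = 0.00494). The receptor kinases MST1R (RON) and ERBB2, which also associate with class B plexins, fell by 0.59 and 0.36 on the log2 scale (edgeR adjusted p = 0.0102 and 0.0201). With the offsets ITGB1 was at 1.08, MET at 0.75 and NRCAM at 1.34, while ITGA1 at 0.39 and MST1R at -0.11 did not pass (edgeR adjusted p = 0.0861 and 0.386). The ERBB2 call was lost without vehicle library 1 or treated library 1 or 3 (edgeR adjusted p = 0.0707 to 0.0995), and 1 gene of the list fell without vehicle library 1 or treated library 3. The immune receptors of semaphorins were at or near 0. TREM2, and the vascular co-receptor KDR, were at 0 in all 6 libraries, TYROBP, HAVCR2 and PTPRC were untested for low counts, and CD72, at no more than 0.761 CPM, did not pass (-1.03, edgeR adjusted p = 0.0590). L1CAM, a co-receptor for SEMA3A, did not pass either (0.28, edgeR adjusted p = 0.0560), but was called higher with the offsets (0.66, edgeR adjusted p = 0.000157).

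Among 24 small GTPases and regulators linked to plexins, all tested, 12 rose, 6 fell and 6 did not pass (median 0.31). Of all tested genes 28.9% rose and 26.4% fell. RHOA, which is activated downstream of class B plexins, rose from 419 ± 9.19 to 726 ± 12.5 CPM (0.79, SE 0.0972, edgeR adjusted p = 0.000464), and RHOB from 29.4 ± 5.43 to 68.2 ± 9.31 CPM (1.21, SE 0.176, edgeR adjusted p = 0.000928). RAP2B, a Ras-related GTPase, fell from 34.8 ± 8.81 to 12.0 ± 1.66 CPM (-1.53, SE 0.212, edgeR adjusted p = 0.000758), or by 2.33 with the offsets. RND1, which binds class A and class B plexins and opens their GTPase-activating domain, was named for this role after its values were seen; it rose from 0.752 ± 0.439 to 3.84 ± 0.657 CPM (2.35, SE 0.408, edgeR adjusted p = 0.00207). With the offsets 7 of the 24 rose and 5 fell, the latter being RAP2B, RRAS, RHOC, FARP1 and ARHGAP35, and the list median was -0.14. In that fit 23.3% of all tested genes rose and 27.3% fell.

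Of 23 cytoskeletal effectors, 22 had a row and 21 were tested, of which 9 rose, 6 fell and 6 did not pass (median 0.01). CDK5R1, the p35 activator of the kinase CDK5 that acts in SEMA3A responses, rose from 1.80 ± 0.598 to 12.5 ± 2.28 CPM (2.79, SE 0.280, edgeR adjusted p = 0.000202). PTK2, focal adhesion kinase, rose from 44.9 ± 6.07 to 102 ± 4.22 CPM (1.18, SE 0.130, edgeR adjusted p = 0.000301), and GSK3B, the kinase of collapsin response mediator proteins, from 45.3 ± 2.66 to 81.8 ± 4.30 CPM (0.85, SE 0.109, edgeR adjusted p = 0.000540). CDK5R1 was at 3.16 with the offsets, PTK2 at 0.38, and GSK3B at 0.06 (edgeR adjusted p = 0.774).

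Of 7 proteases that cut semaphorins, 6 were tested, of which 2 rose, 2 fell and 2 did not pass (median 0.08). ADAM17, a sheddase of membrane proteins whose exons share 1323 bases with IAH1 on the other strand, rose from 3.23 ± 0.884 to 19.2 ± 6.10 CPM (2.57, SE 0.294, edgeR adjusted p = 0.000350), and its relative ADAM10 from 35.3 ± 9.44 to 86.2 ± 12.0 CPM (1.29, SE 0.203, edgeR adjusted p = 0.00135). MMP14, a membrane metalloproteinase that releases SEMA4D, fell from 794 ± 40.7 to 499.7 ± 3.68 CPM (-0.67, SE 0.101, edgeR adjusted p = 0.00110), and FURIN, which matures class 3 semaphorins, from 203 ± 12.3 to 149 ± 3.74 CPM (-0.45, SE 0.101, edgeR adjusted p = 0.00659). With the offsets ADAM17 was at 1.58, and ADAM10 at 0.17, MMP14 at -0.19 and FURIN at 0.12 did not pass (edgeR adjusted p = 0.120, 0.138 and 0.261). PCSK6 and PCSK7, relatives of FURIN, did not pass in the fit without offsets (edgeR adjusted p = 0.489 and 0.979). With the offsets PCSK7 went from 0.00 to -0.80 (edgeR adjusted p = 0.000872), which made it the 1 protease called lower in that fit, while PCSK6 did not pass (edgeR adjusted p = 0.486). Over all 6 lists 34 of 76 tested genes rose and 20 fell, beside 28.9% called higher and 26.4% called lower among all tested genes. With the offsets 28 rose and 15 fell, beside 23.3% and 27.3%.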

How the data were processed

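RNA-seq libraries from T24 cells, 3 vehicle and 3 LPS plus nigericin, were analysed from the deposited table of counts per Ensembl gene, taken as raw counts because every value is whole and the library totals differ. The genome build is hg38 per the submitters' processing notes; for the aligner, counter, annotation release and strand setting nothing is stated, so they count as not given in the sources used here. Columns were matched to samples by library name, and 0 columns belonged to no sample. Symbols came from a table of gene identifiers; 31 of 37871 identifiers had none, and 4 of 90 pathway names and 2 marker names had no row. Coordinates, exon lengths and GC content came from GENCODE 29 (GRCh38), and promoter windows from RefSeq (GRCh38.p14). Exon bases shared with another gene are named for only some of the list genes. Others share some too, among them ITGA1 with PELO on the same strand (475 bases) and RHOA with TCTA on the other (214 bases).

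Genes passing filterByExpr (19170) were normalized with TMM factors and tested with edgeR 4.0.16 (R 4.3.3): a robust quasi-likelihood F test, the group as the only term, and Benjamini-Hochberg adjustment over all tested genes at 0.05. No exact permutation of 3 against 3 libraries can reach a two-sided p below 0.1. The offset fit used a loess of each library's log2 CPM deviation (prior count 2) on GC content and log exon length, span 0.3, over 18620 genes. Other alternatives were RLE factors, library totals, DESeq2 1.42.0, limma-voom (limma 3.58.1), no count filter, at least 1 CPM in 3 libraries, a replicate block, and leaving out each library. Replicates of a group were not duplicates of 1 library: chi-square divided by its degrees of freedom was between 24.1 and 207. The scripts were tested on simulated data.

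The members, the lists and the alternatives were chosen with earlier results of these data known. Within each list the 3 called genes with the smallest p were named, and every gene making up a count of 5 or fewer in 1 direction; SEMA3F, NRP1, RND1, SLC25A44 and the genes named as not passing or by an offset count were added after their values were seen. Members carry no p-value because the contrast chose them.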

Additional observations from a re-analysis of the deposited data

How the results depend on the processing

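SEMA4A, SEMA3C and PLXNA1 kept a positive log2 fold change, and SEMA4B, SEMA4C and SEMA7A a negative one, under all 15 alternatives. SEMA4A was at 6.76 with the GC and length offsets, also together with the replicate block, and at 6.40 to 6.56 with 1 library left out. SEMA3A turned to -0.46 with the offsets and to -0.45 with offsets and replicate block, PLXNB3 to 0.03 and 0.04, FURIN to 0.12 in both and LMNA to 0.01 in both, and NRP1 was at -0.27 in both; the cause was not tested. PLXNB2, at -0.29, crossed 0 to 0.20 and 0.19, and PLXND1, at -0.05, to 0.34 in both and to 0.06 without vehicle library 2, while PLXNB1, at 0.04, was at -0.07 without vehicle library 3. SEMA3F, at 0.02, was just below 0, rounding to 0.00, with RLE factors, DESeq2 or the filter of 1 CPM in 3 libraries, at -0.02 with library totals, and at -0.12 to 0.19 with 1 library left out. Among the other semaphorins, plexins and neuropilins, 4 instead of 7 rose with library totals, and 2 instead of 4 fell with the offsets. With 1 library left out, 4 to 8 of them rose and 2 to 5 fell. Over the 6 pathway lists 29 to 35 rose and 17 to 22 fell with 1 library left out, but 28 rose and 15 fell with the offsets. Over all tested genes 4341 to 6061 rose and 4000 to 5286 fell with 1 library left out. The replicate numbers share only a label: same-numbered libraries had correlated deviations of -0.0231, 0.0956 and -0.0236, and not every library correlated best with its own number. With the replicate block 5513 genes rose and 4895 fell. Depth limits SEMA4A in vehicle, at 23 to 35 counts a library, and the lowest family members, SEMA3G, SEMA6D and PLXNA4, which were not tested.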
